A study of Bos taurus with 12 samples.

Results

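Interferon-stimulated genes are the genes that cells switch on when an interferon binds its receptor. The receptor activates JAK kinases, STAT2 and IRF9 act in a complex that enters the nucleus, and that complex drives antiviral effectors, sensors of viral RNA and regulators that amplify or end the response. In cattle these genes are best known in the uterus for their response to interferon tau, the signal by which the young conceptus announces itself to the mother, and progesterone prepares the endometrium for that encounter. Members were taken by name from a list of 44 gene symbols, of which 33 had a row among the 13930 gene symbols of the count table and 30 had enough counts to be tested, among 10959 tested genes. The other 11 symbols were IFIT1, IFIT2, IFI44, IFI44L, IFIH1, DDX58, CMPK2, BST2, ADAR, EPSTI1 and SP100, and they were not analysed here.

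The samples were endometrial biopsies of grazing dairy cows (Bos taurus), in 4 classes by the progesterone concentration measured on cycle day 4, with 3 libraries in each class. In order of rising progesterone the class titled ANE lay below 0.25 ng/ml, LPP4 below 1.4 (given in mg/dl, where the other labels give ng/ml), HPP4 above 2.5 ng/ml and SO above 20 ng/ml. The sources used here do not explain the titles, give no breed, age or treatment, and do not say whether ANE and SO differ from the other classes in more than progesterone. They also do not say that the 3 replicates of a class came from separate animals. The p-values therefore rest on sample-to-sample spread that may in part be technical.

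The 12 libraries held 3772564 to 8379489 counts, with the smallest total in ANE replicate 2. A chi-square of 22.6 or more per degree of freedom separated every pair of replicates, so none is a library counted again. Replicates agreed least in ANE, with Spearman correlations of 0.738 to 0.877. These were 0.881 to 0.942 in LPP4, 0.957 to 0.972 in HPP4 and 0.961 to 0.976 in SO. The endometrial genes PGR, ESR1, FOXA2, MSX1, HAND2, HOXA10, HOXA11 and OXTR were checked as defining markers. The 5 with a row (PGR, ESR1, MSX1, HOXA10 and OXTR) had reads in every library (summed level 422 to 1146 CPM, the read count scaled to library size). MSX1 had 17.1 CPM in ANE replicate 1, against 245 to 859 CPM in the other libraries. Tissue make-up differed along the class labels. The summed level of 14 smooth muscle markers was 16490 to 40910 CPM in HPP4 and 16860 to 32140 CPM in SO, against 962 to 2546 CPM in LPP4. In ANE it was 1054 and 2421 CPM in replicates 2 and 3 and 96430 CPM in replicate 1, which also had the lowest sum of 11 epithelial markers, 210 CPM against 1606 CPM or more elsewhere. Sums of leukocyte markers differed between some classes too and are given beside the pairs in which any such sum did not overlap. In such bulk samples, fewer cells of a type and less RNA per cell cannot be told apart.

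The interferon-stimulated genes did not follow the progesterone classes in these libraries at the strength that the test required. None of the 30 tested members passed an adjusted p of 0.05 in any of the 6 pairs of classes or in a joint test of the 4 classes, and 1, TRIM25, passed in the trend over the ordered classes (edgeR quasi-likelihood test, Benjamini-Hochberg over all tested genes). The highest and lowest values of many members fell in a few single libraries. ANE replicate 2 held the highest value of 18 of the 30 members and HPP4 replicate 2 the lowest value of 15. Over all tested genes ANE replicate 2 was highest for 21.6% and HPP4 replicate 2 lowest for 7.06%. ANE replicate 1 held the lowest value of another 10 members, where it was lowest for 22.9% of all tested genes.

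On the log2(CPM + 0.5) scale, 27 of 30 members lay above their own 12-library mean in ANE replicate 2, with a median deviation of 0.98. In ANE replicate 1 only 4 members lay above it (median -0.66), and in ANE replicate 3 12 members did (median -0.08). The 3 LPP4 libraries were alike, with 21 to 25 members above and medians of 0.28 to 0.33. The 3 HPP4 libraries all lay below, with 4, 1 and 7 members above and medians of -0.24, -0.77 and -0.17. In SO, replicates 1 and 2 lay above (24 and 22 members, medians 0.39 and 0.24), while replicate 3 had 1 member above and a median of -0.61. The median deviation of all tested genes stayed between -0.03 and 0.02 in every library. ANE thus spanned nearly the whole range of the series, and SO was split between its replicates.

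**Figure D1:**
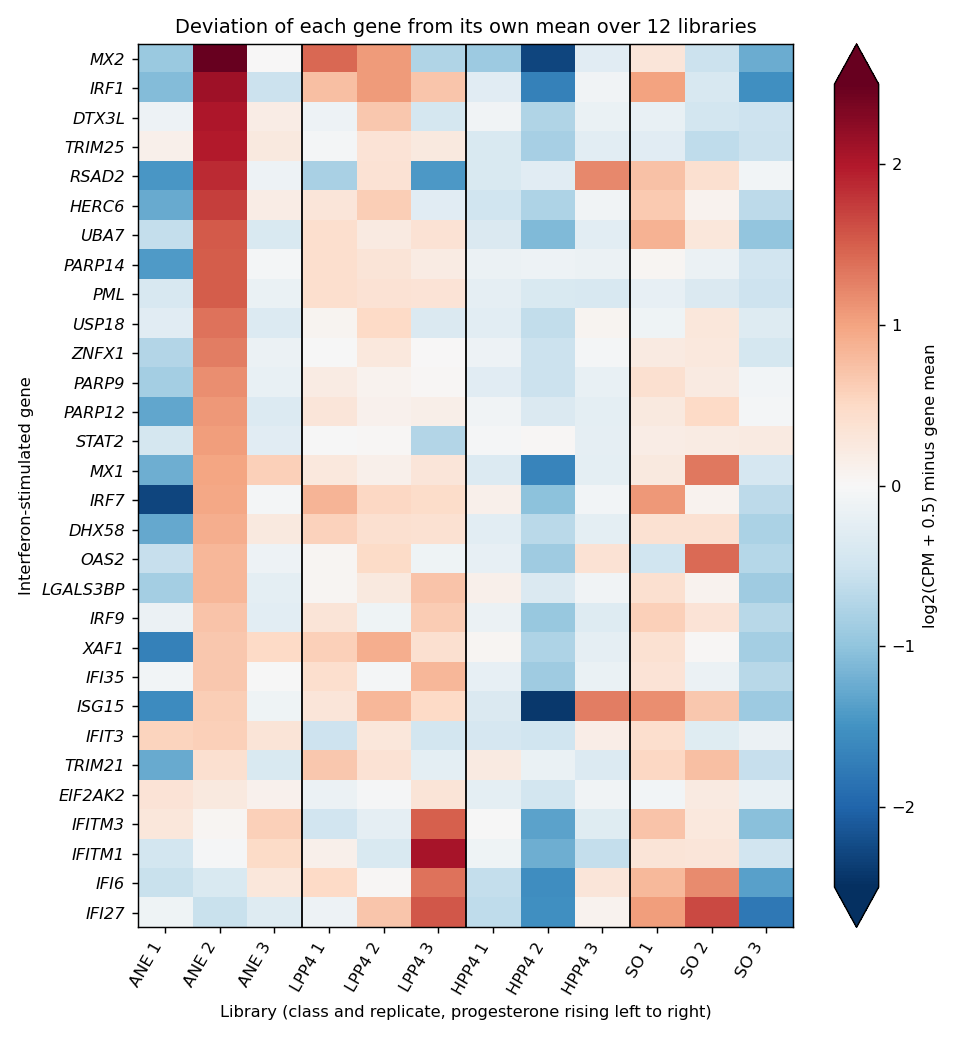
Deviation of each of the 30 tested interferon-stimulated genes (down the page) from its own mean over the 12 libraries (across, by class and replicate), in log2(CPM + 0.5). ANE 2 is high for 27 genes, HPP4 2 and SO 3 are each above the mean for 1 gene, and the 4 genes at the bottom (IFITM3, IFITM1, IFI6, IFI27) peak in LPP4 3 or SO 2.

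The spread between replicates was wide for these genes. Their median within-class standard deviation was 0.71 log2 units, against 0.44 for all tested genes, and their median biological coefficient of variation was 45.6%, against 33.5%. For the median member 76.8% of the variation among the 12 libraries lay within classes, against 66.9% for the median of all tested genes. That share was highest for OAS2 (94.9%), ZNFX1 (91.3%) and PARP14 (90.4%) and lowest for TRIM25 (42.3%), EIF2AK2 (45.3%) and IFIT3 (49.1%).

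Among the antiviral effectors, MX1, a dynamin-like GTPase that blocks viral replication, had 32.3, 153 and 116 CPM in ANE, 92.3, 83.8 and 94.4 CPM in LPP4, 60.4, 24.0 and 64.5 CPM in HPP4 and 91.0, 192 and 56.7 CPM in SO. All 3 HPP4 values lay below all 3 LPP4 values, and the ANE and SO values overlapped both. Its relative and neighbour MX2 had 4.07, 151 and 8.19 CPM in ANE, 23.1, 17.8 and 4.63 CPM in LPP4, 4.16, 1.27 and 6.68 CPM in HPP4 and 10.2, 5.48 and 3.17 CPM in SO. A single library stood out for MX2: ANE replicate 2 was 6.55 times the next highest value, whereas for MX1 the highest library, SO replicate 2, was 1.26 times the next. RSAD2, which encodes viperin, an enzyme that makes a chain-terminating nucleotide, had 3.00, 34.3 and 8.32 CPM in ANE, 5.01, 11.9 and 3.04 CPM in LPP4, 6.84, 7.40 and 21.6 CPM in HPP4 and 15.6, 12.2 and 8.71 CPM in SO. Both ends of its range thus lay in ANE, and the other classes fell between.

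OAS2, a synthetase of the 2-5A messenger that activates RNase L, had 2.83, 8.26 and 4.03 CPM in ANE, 4.61, 6.40 and 4.05 CPM in LPP4, 3.76, 2.17 and 5.87 CPM in HPP4 and 2.98, 12.6 and 2.51 CPM in SO. Its highest library, SO replicate 2, sat in the same class as its second lowest. The reference gene table places OAS2 over part of OAS1Y, and with no counting strand given in the sources used here their reads may not be separable.

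IFIT3, a tetratricopeptide protein that binds and stabilises the viral RNA sensor IFIT1, was the 1 member whose ANE and LPP4 libraries did not overlap. It had 29.9, 31.0 and 25.35 CPM in ANE, 14.0, 24.95 and 14.6 CPM in LPP4, 15.0, 14.2 and 22.9 CPM in HPP4 and 27.5, 16.5 and 18.2 CPM in SO. The margin was narrow, since the highest LPP4 value was 24.95 CPM and the lowest ANE value 25.35 CPM. The kinase EIF2AK2 (PKR), which halts translation on sensing double-stranded RNA, varied least, from 37.4 to 65.6 CPM.

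ISG15, the ubiquitin-like protein that is attached to other proteins during the response and a classic marker of the bovine uterine response to the conceptus, had 9.90, 47.0 and 28.2 CPM in ANE, 37.8, 54.9 and 43.7 CPM in LPP4, 23.9, 5.36 and 75.0 CPM in HPP4 and 69.3, 49.0 and 16.1 CPM in SO. The HPP4 class held both the highest and the lowest value of the series, a 14.0-fold range within 1 class. UBA7, the enzyme that activates ISG15 for attachment, ran from 26.7 CPM in HPP4 replicate 2 to 168 CPM in ANE replicate 2. USP18, which removes ISG15 and dampens the interferon receptor, had 4.59, 15.5 and 4.42 CPM in ANE, 6.06, 8.32 and 4.34 CPM in LPP4, 4.70, 3.57 and 6.002 CPM in HPP4 and 5.26, 7.11 and 4.49 CPM in SO. The low and the high end again lay in these 2 libraries, and the 4 classes overlapped. HERC6, an ISG15 ligase in the mouse, ran from 13.1 CPM in ANE replicate 1 to 107 CPM in ANE replicate 2.

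**Figure D2:**
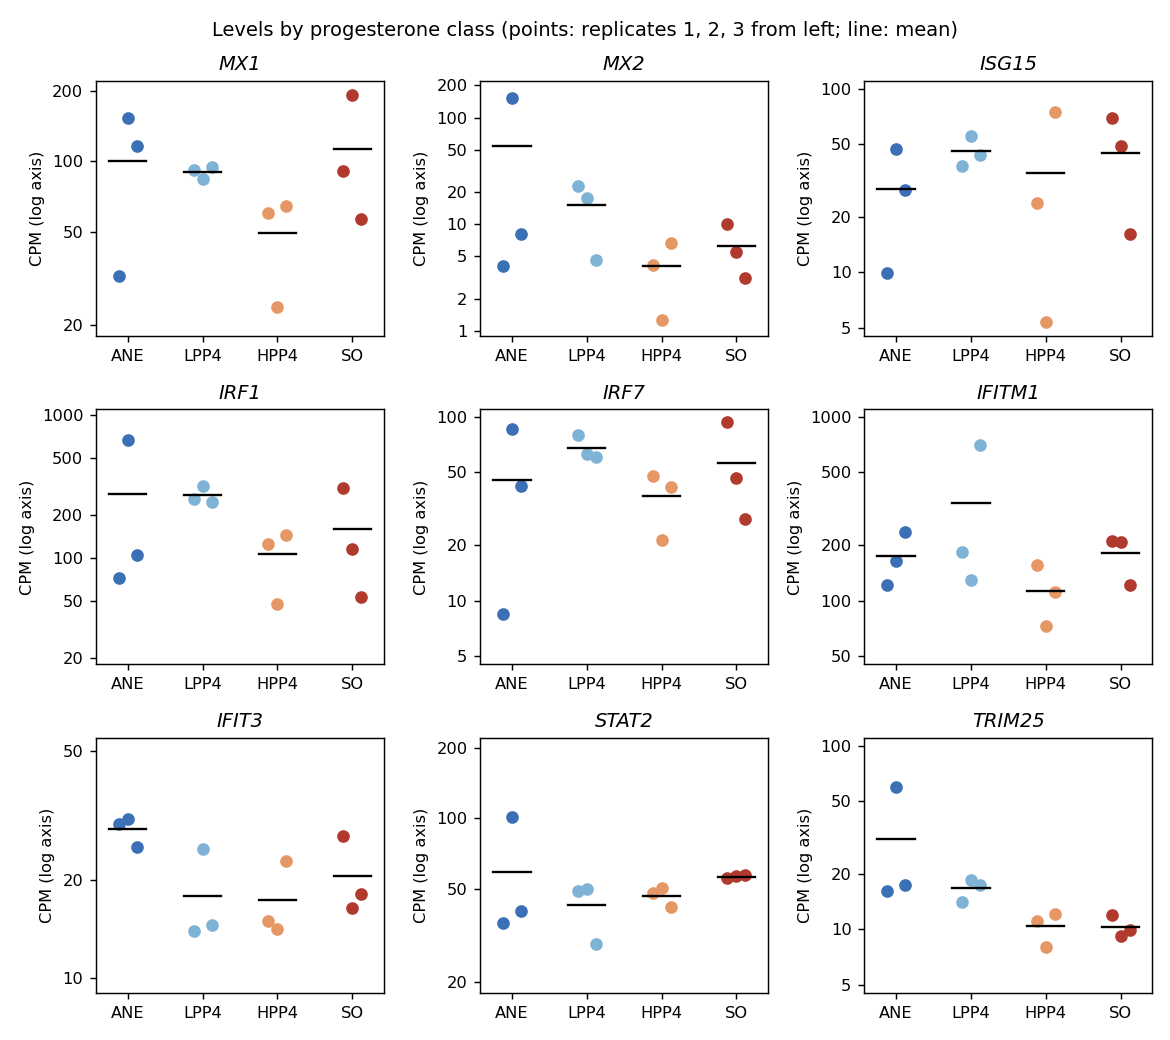
CPM (log axis) of 9 members by class, with replicates 1, 2 and 3 from left to right within a class and the class mean as a line. IRF1 and MX2 are highest in ANE replicate 2, and IRF1 is also higher in every LPP4 than in every HPP4 library. ISG15 spans 5.36 to 75.0 CPM within HPP4, and TRIM25 lies between 8.03 and 12.1 CPM in all 6 HPP4 and SO libraries.

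Of the transcription factors of the pathway, IRF1, IRF7 and IRF9 had all HPP4 values below all LPP4 values, and STAT2 did not. IRF1, the early factor induced above all by interferon gamma, had 72.1, 671 and 106 CPM in ANE, 258, 322 and 248 CPM in LPP4, 126, 47.4 and 146 CPM in HPP4 and 311, 116 and 53.2 CPM in SO. ANE replicate 2 was 2.09 times the next highest library, and the HPP4 and LPP4 values did not overlap. IRF7, which amplifies type I interferon, had 8.48, 86.0 and 42.3 CPM in ANE, 79.6, 63.1 and 60.6 CPM in LPP4, 47.9, 21.4 and 41.6 CPM in HPP4 and 93.9, 46.5 and 27.7 CPM in SO. STAT2, the signal transducer that partners IRF9, had 35.7, 101 and 40.0 CPM in ANE, 48.9, 50.0 and 29.2 CPM in LPP4, 47.9, 50.2 and 41.9 CPM in HPP4 and 55.5, 56.6 and 57.1 CPM in SO. The SO replicates of STAT2 lay within 1.03 times each other, and all were above the HPP4 and LPP4 values and below ANE replicate 2. IRF9, the DNA-binding part of the complex, had 69.1, 126 and 64.2 CPM in ANE, 95.8, 71.5 and 120 CPM in LPP4, 69.8, 39.9 and 61.8 CPM in HPP4 and 117, 98.0 and 47.1 CPM in SO. Its HPP4 and LPP4 values did not overlap, and its ANE and SO values overlapped both.

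The small membrane proteins peaked elsewhere. IFITM1, which blocks the fusion of enveloped viruses with the cell, had 122, 165 and 237 CPM in ANE, 185, 129 and 703 CPM in LPP4, 156, 72.6 and 111 CPM in HPP4 and 212, 209 and 122 CPM in SO. LPP4 replicate 3 was 2.96 times the next highest library. IFITM3, of the same family, also peaked there (2688 CPM, against 381 to 1571 CPM in the other libraries), as did IFI6, a hydrophobic protein that protects against cell death and flavivirus infection (667 CPM, lowest 88.2 CPM). IFI27 of the IFI6 family had 80.6, 59.1 and 69.3 CPM in ANE, 79.3, 141 and 256 CPM in LPP4, 55.5, 29.6 and 92.5 CPM in HPP4 and 180, 273 and 24.8 CPM in SO. SO held both its highest and its lowest library. The IFITM genes are close relatives, so reads may be split between them. IFITM2 had 0 to 6 reads per library and was not tested.

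Of the sensors and signalling proteins, DHX58 (LGP2), an RNA helicase that tunes the sensing of viral RNA, ran from 16.6 CPM in ANE replicate 1 to 77.4 CPM in ANE replicate 2. ZNFX1, an RNA helicase of the antiviral response, ran from 57.4 to 232 CPM between the same libraries. So did PARP9, PARP12 and PARP14, enzymes or pseudoenzymes of ADP-ribosylation, at 26.2 to 107, 29.7 to 157 and 24.6 to 192 CPM. DTX3L, the ubiquitin ligase that works in a complex with PARP9, had 10.6, 48.8 and 13.4 CPM in ANE, 10.7, 18.9 and 8.54 CPM in LPP4, 11, 6.76 and 10.4 CPM in HPP4 and 10.2, 8.35 and 8.05 CPM in SO. Apart from ANE replicate 2 and LPP4 replicate 2 its libraries lay close together. DTX3L and PARP9 overlap in the reference gene table, so their counts may share reads. TRIM21, a ubiquitin ligase and receptor for antibodies inside the cell, ran from 18.2 CPM in ANE replicate 1 to 74.4 CPM in SO replicate 2. XAF1, a promoter of apoptosis, ran from 13.3 CPM in ANE replicate 1 to 81.9 CPM in LPP4 replicate 2. LGALS3BP, a secreted galectin-binding glycoprotein, ran from 59.4 CPM in SO replicate 3 to 197 CPM in ANE replicate 2. These 3 genes therefore differed in which library was highest.

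The 3 members with too few counts to test were IFITM2, given above, SAMHD1 and CXCL10. SAMHD1, a nucleotide phosphohydrolase, had 2 to 10 reads per library. The chemokine CXCL10 had 0 reads in all 12 libraries, which allows up to 0.795 CPM in the smallest library and 0.358 CPM in the largest, by 3 counts each and for counting error only. In the reference gene table CXCL10 lies over the tested gene ART3, and 1378 symbols had 0 reads in every library. Such a 0 may also come from how reads were assigned, which that limit does not cover.

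The comparison of HPP4 with LPP4 sets the high class of day 4 progesterone against the low one. No member passed the test (0 of 30, where 0% of all tested genes passed), and 2 members, IFITM1 and IFI35, had an unadjusted edgeR p under 0.05, where 10.3% of all tested genes did. In a fit of the 6 HPP4 and LPP4 libraries alone, 16 of 30 members had an unadjusted edgeR p under 0.05, where 14.9% of all genes tested there did, and again none passed the adjusted threshold (0.244% of all genes). DESeq2 called no member, where it called 2.2% of all tested genes, and limma-voom none. The values nevertheless leaned one way. The fitted log2 fold change was below 0 for 28 of 30 members, against 51.9% of all tested genes, and the median was -0.68 against -0.02. In 14 members all 3 HPP4 libraries lay below all 3 LPP4 libraries, and in none above. Of all tested genes 9.68% lay below in this way and 10.3% above, 20% together. The 14 were MX1, IFI35, DHX58, IRF1, IRF7, IRF9, XAF1, PARP9, PARP12, PARP14, TRIM25, UBA7, ZNFX1 and PML.

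IFITM1 had the smallest p in this pair, with a log2 fold change of -1.58 (SE 0.58, edgeR adjusted p = 0.395), although its HPP4 and LPP4 ranges overlapped. That value was -0.47 without LPP4 replicate 3 (edgeR adjusted p = 0.846). IFI35, a leucine zipper protein that regulates RNA sensing, had 51.7, 31.6 and 52.5 CPM in HPP4, against 79.2, 57.7 and 106 CPM in LPP4 (log2 -0.84, SE 0.34, edgeR adjusted p = 0.424). PML, the organiser of nuclear bodies, had 25.8, 22.8 and 22.8 CPM in HPP4, against 40.3, 39.0 and 38.4 CPM in LPP4 (log2 -0.72, SE 0.42, edgeR adjusted p = 0.580). The replicates of PML were tight in both classes, and its edgeR standard error was still wide. The fit estimates the spread of a gene over all 4 classes, and in ANE PML had 22.6, 86.7 and 26.9 CPM. PARP14 had 60.1, 61.1 and 59.9 CPM in HPP4, against 90.0, 83.5 and 77.0 CPM in LPP4. The 2 members with a positive value were RSAD2 (log2 0.84, SE 0.82) and STAT2 (0.13, SE 0.36).

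**Figure D3:**
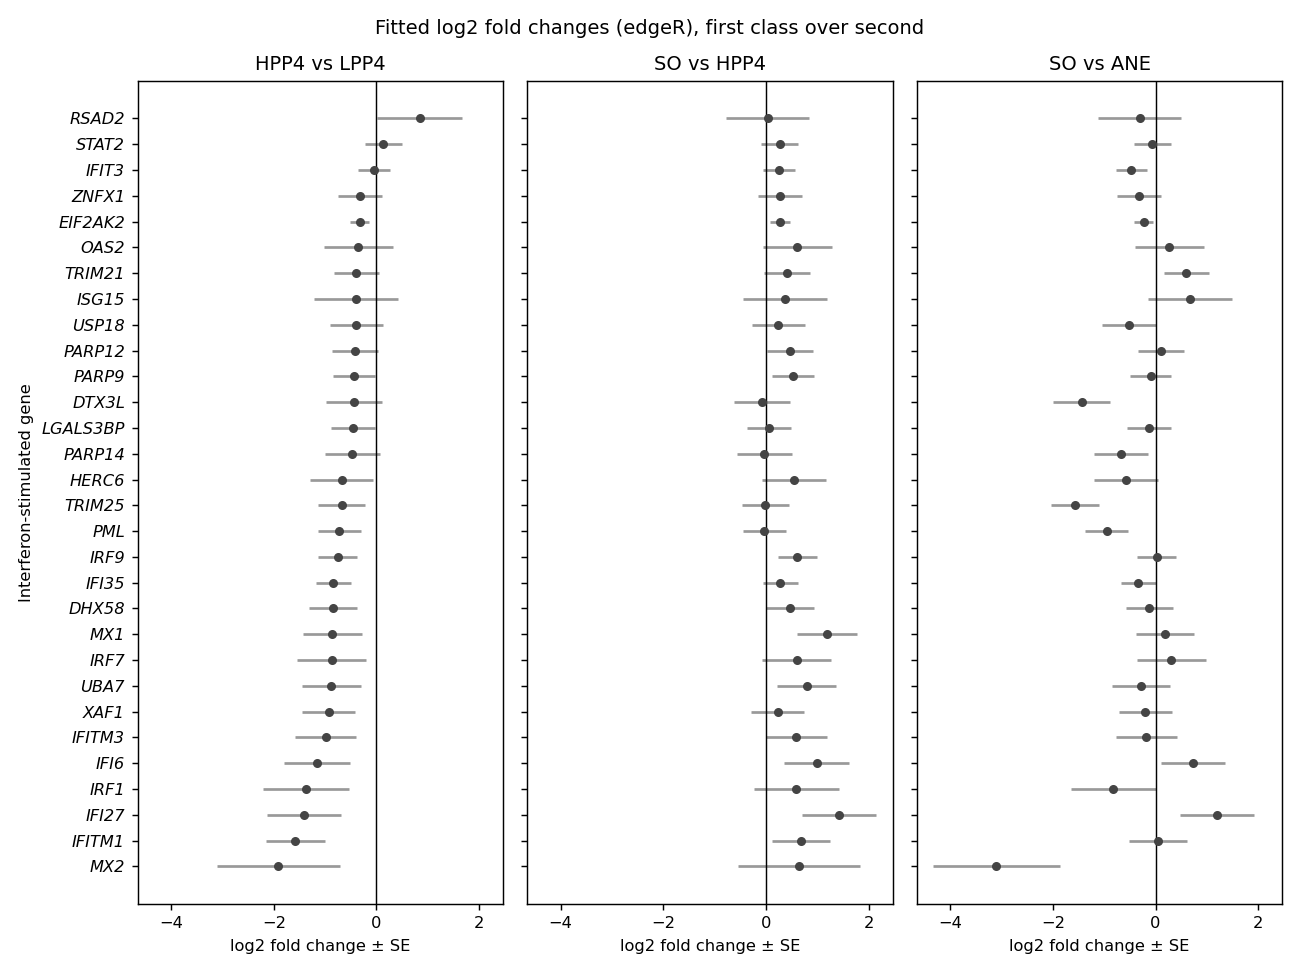
Fitted log2 fold changes with their standard errors for the 30 members (down the page) in 3 comparisons, the first class over the second. In HPP4 vs LPP4 28 members lie below 0, in SO vs HPP4 26 lie above 0, and in SO vs ANE 20 lie below 0 with MX2 lowest at -3.10.

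Markers of other cells moved beside these values. Of 14 smooth muscle markers, all with reads, the sum was 16490 to 40910 CPM in HPP4, against 962 to 2546 CPM in LPP4. The sum of 9 macrophage and dendritic cell markers was 118 to 172 CPM in HPP4, against 236 to 766 CPM in LPP4, with AIF1 at 0 in all libraries. The sum of 15 T and NK cell markers was 98.6 to 256 CPM in HPP4, against 194 to 573 CPM in LPP4. The sum of 6 neutrophil markers was 26.1 to 118 CPM in HPP4, against 296 to 465 CPM in LPP4, and that of 5 B and plasma cell markers 64.8 to 936 CPM in HPP4, against 296 to 2415 CPM in LPP4. Of the leukocyte markers with reads, NCR1, CXCR2 and MMP9 were at 0 in some libraries. When the mean log2 level of the smooth muscle markers was added to the model, a fit chosen after seeing the data, the median of the members in this pair was 0.54 in place of -0.68, and 8 of 30 members lay below 0. That level was 9.49 to 10.72 in HPP4 and 5.23 to 6.43 in LPP4, and within classes it varied most in ANE (11.76, 5.20 and 6.58). The fit therefore cannot tell smooth muscle from class in this pair, and no conclusion is drawn from the turned median. The part of leukocytes in the result was not tested.

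SO against HPP4 compares the 2 classes of highest progesterone, which had like smooth muscle sums (16860 to 32140 CPM in SO, 16490 to 40910 CPM in HPP4). No member passed (0 of 30, background 0%), none had an unadjusted edgeR p under 0.05, where 0.794% of all tested genes did, and DESeq2 and limma-voom called none. The log2 fold change was above 0 for 26 of 30 members, against 47.7% of all tested genes, with a median of 0.44 against -0.01. That median was 0.21 without SO replicate 1, 0.28 without HPP4 replicate 2 and 0.70 without SO replicate 3. The highest values were those of IFI27 (log2 1.43, SE 0.72) and MX1 (1.19, SE 0.58), both at an edgeR adjusted p of 1. STAT2, PARP9 and PARP12 had all SO libraries above all HPP4 libraries, 3 of 30 members, where 3.2% of all tested genes did (7.09% in either direction). PARP9 had 63.3, 55.5 and 45.4 CPM in SO, against 39.0, 32.7 and 41.6 CPM in HPP4. This pair shares its HPP4 libraries with the one before, so the opposite lean is not a separate observation. Over the 4 classes the class median was lowest in HPP4 for 17 of 30 members and highest in HPP4 for 0, where HPP4 was lowest for 19.7% and highest for 20.0% of all tested genes.

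SO against ANE compares the extremes of progesterone. No member passed (0 of 30), where 1.52% of all tested genes did. TRIM25, DTX3L, MX2 and PML, all lower in SO, had an unadjusted edgeR p under 0.05, 4 of 30 members where 23.8% of all tested genes did. DESeq2 called 2 members, MX2 and TRIM25, both lower in SO, where it called 13.8% of all tested genes, and limma-voom none. The log2 fold change was below 0 for 20 of 30 members, where it was for 57.6% of all tested genes. Its median was -0.19, against -0.12 for all tested genes, and its sign turned with single libraries. It was 0.51 without ANE replicate 2, with 7 of 30 members below 0, and 0.10 without SO replicate 3, with 14 below 0. It was -0.44 without ANE replicate 1, -0.36 without SO replicate 1, -0.01 with limma-voom and 0.44 with the smooth muscle level in the model. MX2 had the lowest value (log2 -3.10, SE 1.23, edgeR adjusted p = 0.164), which was 0.07 without ANE replicate 2. DTX3L had 10.2, 8.35 and 8.05 CPM in SO, against 10.6, 48.8 and 13.4 CPM in ANE, with no overlap (log2 -1.44, SE 0.55, edgeR adjusted p = 0.151). DTX3L and TRIM25 were the 2 members of 30 whose ranges did not overlap, where 25.7% of all tested genes did not. IFI27 had the highest value (log2 1.19, SE 0.72, edgeR adjusted p = 0.336), with SO replicate 3 below every ANE library. Without ANE replicate 1, TRIM25 passed (log2 -1.88, edgeR adjusted p = 0.0404), as did 5.79% of all genes tested there.

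Most leukocyte marker sums were lower in SO, beside these values. The sum of macrophage and dendritic cell markers was 80.3 to 168 CPM in SO, against 346 to 761 CPM in ANE, and 2 of the 8 tested fell (edgeR). The sum of T and NK cell markers was 95.6 to 161 CPM in SO, against 249 to 585 CPM in ANE, and 1 of the 14 tested fell. Of the 5 tested endometrium markers 1 fell too, where 1.52% of all tested genes passed in either direction. The neutrophil sum was 32.7 to 63.7 CPM in SO, against 66.6 to 1281 CPM in ANE. The B and plasma cell sum was 187 to 400 CPM in SO, within the 150 to 1025 CPM of ANE. JCHAIN made up most of it (137 to 274 CPM in SO, 122 to 861 CPM in ANE). The median log2 fold change of the 5 B and plasma cell markers was 0.61. The part of these cells in the result was not tested.

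The other 3 pairs called no member either. In HPP4 against ANE 0 of 30 members passed (background 0%) and 5 had an unadjusted edgeR p under 0.05, where 18.8% of all tested genes did. These were TRIM25, MX2, EIF2AK2, DTX3L and IFIT3, all lower in HPP4, and DESeq2 called TRIM25 and MX2, where it called 7.19% of all tested genes. The log2 fold change was below 0 for 28 of 30 members, where it was for 58.8% of all tested genes, with a median of -0.62 against -0.12, and of -0.03 without ANE replicate 2. The macrophage and dendritic cell sum was 118 to 172 CPM in HPP4, against 346 to 761 CPM in ANE, and the T and NK cell sum 98.6 to 256 CPM in HPP4, against 249 to 585 CPM in ANE. Their part in the result was not tested. IFIT3, IFI35, IFITM3, EIF2AK2 and TRIM25 had all HPP4 libraries below all ANE libraries, 5 of 30 members, where 20.4% of all tested genes did not overlap in either direction.

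In SO against LPP4 0 of 30 passed (background 0%), 21 of 30 values lay below 0 (51.1% of all tested genes), and the median was -0.14. The median was 0.13 without SO replicate 3, with 12 of 30 below 0, -0.45 without SO replicate 1, -0.39 without SO replicate 2, -0.08 without LPP4 replicate 3 and 0.87 with the smooth muscle level in the model. Ranges did not overlap for 5 of 30 members, where they did not for 22.8% of all tested genes: STAT2 was higher in SO and XAF1, PARP14, TRIM25 and PML lower. The smallest unadjusted edgeR p was 0.102, that of PML. The neutrophil sum was 32.7 to 63.7 CPM in SO, against 296 to 465 CPM in LPP4. For macrophage and dendritic cells it was 80.3 to 168 against 236 to 766 CPM, and for T and NK cells 95.6 to 161 against 194 to 573 CPM. The B and plasma cell sums overlapped. The smooth muscle sum was 16860 to 32140 against 962 to 2546 CPM. The part of leukocytes was not tested, and smooth muscle could not be told apart from class. In LPP4 against ANE 0 of 30 passed (background 0%) and the smallest unadjusted edgeR p was 0.0516, that of IFIT3. There 16 of 30 values lay below 0 (55.2% of all tested genes), and IFIT3 was the 1 member without overlap, where 9.74% of all tested genes had none. The median was -0.09, and it was 0.65 without ANE replicate 2, -0.40 without ANE replicate 1, -0.18 without ANE replicate 3, -0.15 without LPP4 replicate 3, -0.01 without LPP4 replicate 1 and 0.20 with limma-voom. In these last 2 pairs 0 members had an unadjusted edgeR p under 0.05, where 11.9% and 11.6% of all tested genes did, and neither DESeq2 nor limma-voom called a member.

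In the joint test of the 4 classes 0 of 30 members passed in edgeR (background 0%). TRIM25 and MX2 had an unadjusted edgeR p under 0.05, where 17.8% of all tested genes did, with edgeR adjusted p of 0.184 and 0.240. DESeq2 called these 2 genes, where it called 11.9% of all tested genes, and limma-voom none. In the trend over the class ranks 1 to 4, 1 of 30 members passed, where 7.48% of all tested genes did, so the share of members was below the background. At an unadjusted edgeR p under 0.05 there were 4 members, where 27.9% of all tested genes passed, and 24 of 30 slopes lay below 0, as did 57.9% of all tested genes. The called member was TRIM25, a ubiquitin ligase that activates the RNA sensor RIG-I. It had 16.1, 59.4 and 17.4 CPM in ANE, 14.1, 18.6 and 17.4 CPM in LPP4, 11.1, 8.03 and 12.1 CPM in HPP4 and 11.9, 9.22 and 9.89 CPM in SO. Every HPP4 and SO value lay below every ANE and LPP4 value. Class means were 31.0 ± 24.6, 16.7 ± 2.31, 10.4 ± 2.14 and 10.3 ± 1.39 CPM in that order (SD, n = 3 each).

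The slope of TRIM25 was -0.54 log2 units per class (SE 0.14, edgeR adjusted p = 0.0394), and it was negative in all alternatives (-0.60 to -0.27, adjusted p of 0.00559 to 0.101). The call was lost without ANE replicate 2 (slope -0.27, edgeR adjusted p = 0.0948) and also without LPP4 replicate 2, without any 1 HPP4 library and without any 1 SO library. It held with DESeq2 (slope -0.53, adjusted p = 0.00559), which called 18.3% of all tested genes, and was lost with the smooth muscle level in the model (slope -0.37, edgeR adjusted p = 0.0993). MX2 (-1.09, SE 0.35), DTX3L (-0.48, SE 0.16) and PML (-0.36, SE 0.13) had the next smallest p, with edgeR adjusted p of 0.0706, 0.0789 and 0.0920. Without ANE replicate 1, which had the highest smooth muscle sum, 5 members passed, all with falling slopes: TRIM25, MX2, DTX3L, PARP14 and PML. In that fit 13.2% of all tested genes passed, against 16.7% of the members, a share near the background. Without ANE replicate 2, 0 passed, where 1.08% of all genes did, and the median slope of the members was 0.05 in place of -0.12. It was -0.05 without SO replicate 3. In the main trend, where 7.48% of all tested genes passed, 6 of 8 tested macrophage and dendritic cell markers fell (median slope of the list -0.88). So did 4 of 14 T and NK cell markers (-0.69) and 1 of 6 neutrophil markers (-1.34). Of the other lists, 2 of 11 epithelial markers (-0.15) and 2 of 5 endometrium markers (-0.37) fell. No smooth muscle, B and plasma cell, endothelial or stromal fibroblast marker passed. The part of these cells in the slope of TRIM25 was not tested.

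The genes above the response in the pathway were measured too. Of a list of 39 interferons, receptors, kinases and sensors, 30 had a row and 25 were tested. Those named here were chosen after their values were seen. The interferon genes themselves were at or near 0. IFNB1 had 0 to 3 reads per library, IFNT2, an interferon tau gene, 2 reads in all 12 libraries together, and IFNK and IFNL3 none. IFNG, the interferon gamma of T and NK cells, reached 4.39 CPM in ANE replicate 2 and had 0 reads in HPP4 replicate 2 and SO replicate 3. IFNAR1, a chain of the type I interferon receptor, had 136 CPM in ANE replicate 2 and 12.5 to 29.8 CPM in the other 11 libraries. No gene of this list passed in any pair or in the joint test in edgeR. An unadjusted edgeR p under 0.05 was reached by 10 of 25 in SO against ANE (23.8% of all tested genes) and 9 in HPP4 against ANE (18.8%). It was reached by 7 in HPP4 against LPP4 (10.3%), 5 in SO against LPP4 (11.9%), 1 in LPP4 against ANE (11.6%) and 0 in SO against HPP4 (0.794%). The joint test had 7 (17.8%) and the trend 13 (27.9%). Apart from LPP4 against ANE and SO against HPP4, these shares of the list were above those of all tested genes. DESeq2 called 0 to 5 in a pair (0% to 13.8% of all tested genes) and 4 in the joint test (11.9%), and limma-voom none. In the edgeR trend 2 of 25 fell and none rose, near the 7.48% of all tested genes called. DESeq2 called 8 in the trend, where it called 18.3% of all tested genes, and limma-voom 0. The 2 edgeR calls were TLR8, a sensor of single-stranded RNA (-1.12 per class, edgeR adjusted p = 0.0376), and IRF8, a factor of myeloid cells that also stands among the macrophage and dendritic cell markers (-0.93 per class, edgeR adjusted p = 0.0418). Both calls were lost without ANE replicate 2 (edgeR adjusted p of 0.139 and 0.0871) and without any 1 HPP4 or SO library, that of IRF8 also without ANE replicate 3.

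Of 54 further interferon-induced genes that are not members, 40 had a row and 37 were tested. None passed in a pair or in the joint test in edgeR. In HPP4 against LPP4 9 of 37 had an unadjusted edgeR p under 0.05, where 10.3% of all tested genes did. The count was 8 in HPP4 against ANE (18.8%), 7 in SO against ANE (23.8%), 5 in SO against LPP4 (11.9%), 1 in LPP4 against ANE (11.6%) and 0 in SO against HPP4 (0.794%). The joint test had 7 (17.8%) and the trend 9 (27.9%). DESeq2 called 0 to 2 in a pair (0% to 13.8% of all tested genes) and 3 in the joint test (11.9%), and limma-voom none. In the edgeR trend 2 of 37 fell and none rose, a share below the 7.48% of all tested genes. DESeq2 called 5, a share below its 18.3% of all tested genes, and limma-voom 1, CTSS. The 2 edgeR calls were SAMD9, an antiviral factor (-1.13 per class, edgeR adjusted p = 0.0432), and CTSS, the cathepsin that cuts the invariant chain for antigen presentation (-0.65 per class, edgeR adjusted p = 0.0400). Without ANE replicate 2 the edgeR adjusted p was 0.280 for SAMD9 and 0.107 for CTSS, and both calls were also lost without any 1 HPP4 or SO library, that of SAMD9 also without LPP4 replicate 2 and that of CTSS also without ANE replicate 3. In HPP4 against LPP4 the median log2 fold change of these 37 genes was -1.03, beside -0.68 for the members and -0.02 for all tested genes. ANE replicate 2 had their highest mean level (7.06 on the log2 scale) and HPP4 replicate 2 the lowest (4.77), which are the same 2 libraries that were highest and lowest for the members (6.59 and 4.64).

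**Figure D4:**
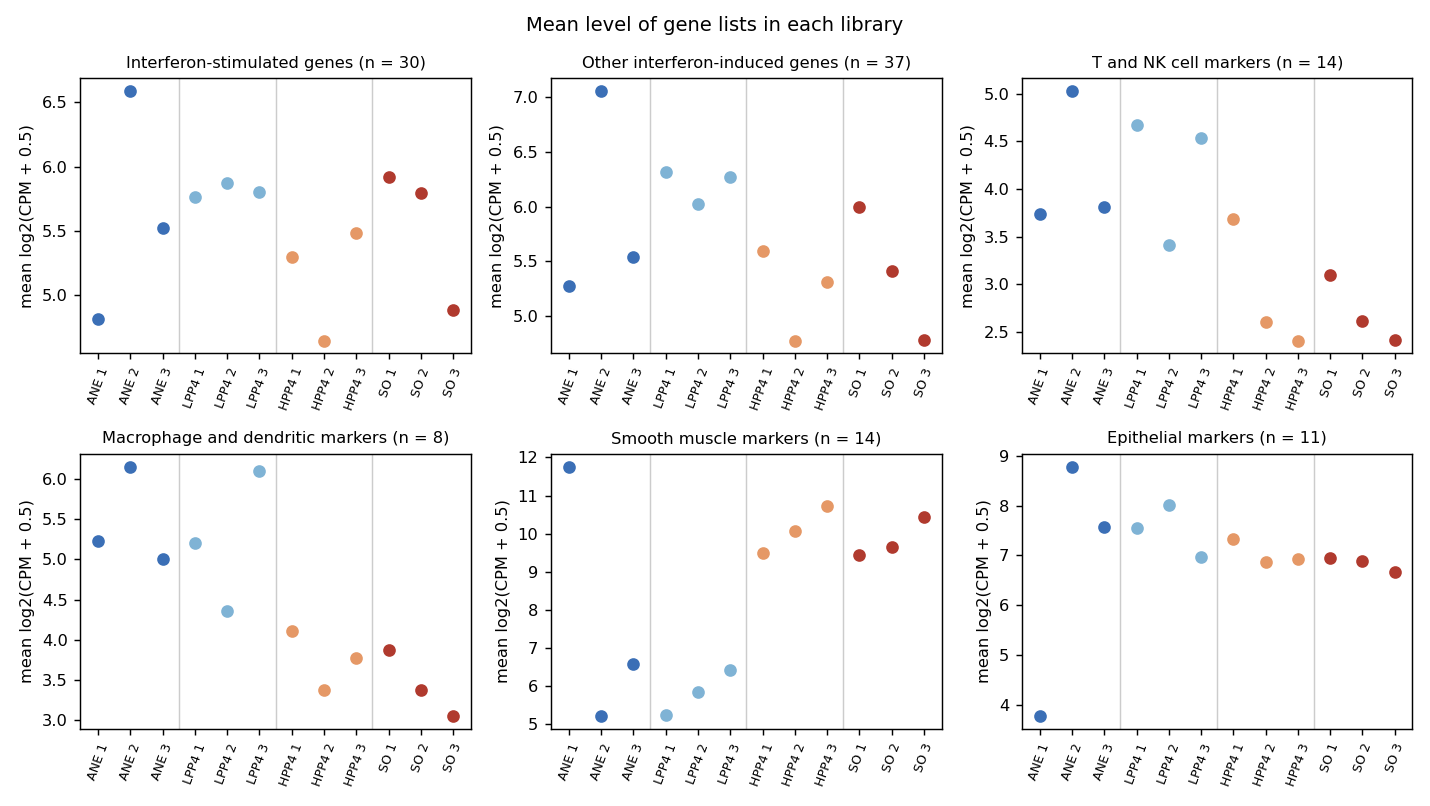
Mean log2(CPM + 0.5) of 6 gene lists in each of the 12 libraries, ordered by class and replicate. The interferon-stimulated genes run from 4.64 (HPP4 2) to 6.59 (ANE 2). They are lower in HPP4 (4.64 to 5.48) than in LPP4 (5.76 to 5.87), and all other pairs of classes overlap. The smooth muscle markers run from 9.45 to 10.72 in HPP4 and SO. They run from 5.20 to 6.58 in LPP4, ANE 2 and ANE 3, with ANE 1 at 11.76.

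ANE replicate 2 stood apart in other markers as well. Its sum of 6 neutrophil markers was 1281 CPM, against 26.1 to 465 CPM in the other 11 libraries, and its sum of 11 epithelial markers was 5788 CPM, against 210 to 3447 CPM. Its sum of 15 T and NK cell markers was 585 CPM, next to 573 and 510 CPM in LPP4 replicates 1 and 3. Its sum of macrophage and dendritic cell markers was 761 CPM, next to 766 CPM in LPP4 replicate 3. Its sum of 9 stromal fibroblast markers was the lowest, 6972 CPM against 16490 to 57460 CPM in the other libraries. The part of these cells in the levels of the interferon-stimulated genes was not tested.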

How the data were processed

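Polyadenylated RNA of 12 endometrial biopsies was made into stranded TruSeq libraries and sequenced as paired reads in 1 pool, per the labels' protocols. The authors deposited raw counts of reads per gene symbol, 1 column per library. The submitters' processing notes name FastQC 0.11.2 and Trimmomatic 0.32 and the builds UMD3.1 and bosTau8. Aligner, counting program, strand setting and annotation: not given in the sources used here. The reference gene table is of assembly ARS-UCD2.0, so it served for names and overlaps alone: 32 of 33 members matched by symbol, and 11 overlap a tested gene. No sequences were used here.

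From the counts, edgeR 4.0.16 (R 4.3.3) was run after filterByExpr (count minimum 10) with TMM scaling (factors 0.728 to 1.11), as 1 quasi-likelihood model of the 4 classes over 12 libraries, with Benjamini-Hochberg adjustment over 10959 genes. CPM values use the TMM-scaled totals. The trend is a slope on the class ranks, because 1 label has another unit. The procedure was tested on simulated data. Replicate totals of 3772564 to 8379489 counts set the counting precision. Alternatives were DESeq2 1.42.0 (also for its size factors), limma-voom (limma 3.58.1), no filter, thinning, a replicate block, pair-only fits and leaving out each library. Members and lists were chosen with earlier results of these data known. Every member could be named, with values in every library for a set list of well-known members, those called and those with the highest or lowest fold change in a comparison. Of other lists, genes called in a pair or the joint test were to be named. None passed, and those named were chosen after their values were seen.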

Additional observations from a re-analysis of the deposited data

How the results depend on the processing

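The count of 0 members in HPP4 against LPP4, SO against HPP4, SO against LPP4 and LPP4 against ANE was 0 in all alternatives run. DESeq2 called 2 members in SO against ANE, 2 in HPP4 against ANE, 2 in the joint test and 2 in the trend, where edgeR had 0, 0, 0 and 1. Of all tested genes DESeq2 called 13.8%, 7.19%, 11.9% and 18.3% in these, so the members' share of 6.67% was below each. With the smooth muscle marker level in the model, chosen after seeing the data, 3 members passed in SO against ANE (IRF7, PARP12 and TRIM21, all higher in SO) and 2 in the trend (IRF7 and TRIM21, rising), where 17.3% and 15% of all tested genes passed. Within classes that level varied most in ANE, from 5.20 in replicate 2 to 11.76 in replicate 1, so the fit leans on those libraries. The trend count was 0 with limma-voom, 0 with the replicate block and 0 with ANE replicates 1 and 2 left out together. Leaving out 1 library at a time gave 0 to 1 members in SO against ANE and 0 to 5 in the trend, the upper ends without ANE replicate 1. Deviations of same-numbered libraries from their class means correlated at -0.31 to 0.30, and those of other-numbered libraries at -0.40 to 0.38. No pairing by replicate number was seen, but with 3 libraries a class this check cannot exclude one. The replicate block changed no other count of members.

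Without ANE replicate 2 the log2 fold change of MX2 in SO against ANE was 0.07, and in LPP4 against ANE that of TRIM25 was 0.01 and that of DTX3L 0.10, each with its sign turned. With 1 library left out these 3 values ran from -3.63 to 0.07, from -1.17 to 0.01 and from -1.30 to 0.10. In SO against LPP4, IFITM1 was 0.21 without LPP4 replicate 3 and PML 0.21 with the smooth muscle covariate, also turned, and IFITM1 ran from -1.28 to 0.21 with 1 library left out. The cause was not tested. The count of 14 members whose HPP4 and LPP4 ranges did not overlap was 12 with library totals alone and 15 after thinning, where 20% and 19.6% of all tested genes did not overlap. RSAD2, OAS2, USP18 and MX2 had low median levels (8.51, 4.04, 4.98 and 6.08 CPM), so counting error weighs more for them than for members with higher levels. Their biological coefficients of variation were 67.9%, 56.9%, 45.1% and 91.1%. With 3 libraries a class and this spread, a p that misses the threshold does not show that levels did not differ.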

Other observations

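Outside the lists, 5 genes with names of interferon-induced families were looked up after their values were seen: ISG12(B), IFI47, IFIT5, IFITM5 and IFI27L2. Only ISG12(B) passed in an edgeR comparison, the trend, where 7.48% of all tested genes did. ISG12(B), a gene of the IFI27 family by its name, fell over the ordered classes (-1.24 per class, SE 0.34, edgeR adjusted p = 0.0478). It had 4.24, 59.6 and 11.7 CPM in ANE, 1.32, 14.1 and 19.5 CPM in LPP4, 3.09, 0.383 and 2.59 CPM in HPP4 and 4.23, 1.62 and 1.19 CPM in SO. Its call held in 5 of 20 alternatives and was lost without ANE replicate 2 (-0.86, edgeR adjusted p = 0.177), and also without ANE replicate 3, LPP4 replicate 2 or 3 or any 1 HPP4 or SO library. IFI27 itself had a slope of 0.22 (edgeR adjusted p = 0.606). IFI47, an interferon-induced GTPase in the mouse, had 7.07, 19.1 and 19.4 CPM in ANE, 44.9, 6.91 and 49.6 CPM in LPP4, 9.66, 2.93 and 12.1 CPM in HPP4 and 34.1, 2.87 and 2.64 CPM in SO, with no call in any comparison (edgeR, unadjusted p of 0.0779 or more). IFIT5 had 48.0, 64.5 and 66.9 CPM in LPP4, against 145.6, 69.4 and 87.1 CPM in ANE, with no overlap and no call (log2 -0.75, SE 0.25, edgeR adjusted p = 0.329). IFITM5 and IFI27L2 had unadjusted edgeR p of 0.371 or more and 0.346 or more.

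Of the further interferon-induced genes, IDO1, the enzyme that degrades tryptophan, had 632 CPM in ANE replicate 2, which was 8.23 times the next highest library. CD274, the checkpoint ligand PD-L1, had 73.8 CPM there, 2.47 times the next. In the other libraries CD274 was uneven within classes, with 29.9 CPM in LPP4 replicate 2 and 21.3 CPM in HPP4 replicate 3 against 0.125 to 3.03 CPM in the rest. These 2 genes were chosen after their values were seen, and neither passed in any comparison in edgeR. DESeq2 called IDO1 in HPP4 against ANE (edgeR log2 -3.89, SE 1.56, adjusted p = 0.220).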
